A study of Mus musculus with 12 samples.

Results

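Ier2, Ier3, Ier5, Csrnp1, Btg1, Btg2, Cited2, Maff and Srf are immediate early response genes, and their mRNA levels are described here in mouse bone marrow-derived mast cells (BMMCs) exposed to nano-SiO2 particles, to the antigen DNP-HSA, or to both. They are 9 of the 28852 genes in the deposited table. The 9 genes were chosen by name, from values of these same libraries in which they had been seen above the blank, so their differences from the blank are given as a description. All 9 passed the filter on low values (an FPKM no lower than 1 in 3 or more of the 12 libraries), as did 12862 genes in all, and they carry 22 annotated isoforms.

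BMMCs were grown from femurs of BALB/c mice in medium holding IL-3 and SCF (each at 10 ng/mL), a culture that all groups share. The 4 groups, with n = 3 libraries each, were blank control cells with no exposure, cells given SiO2, cells given DNP-HSA, and cells given DNP-HSA+SiO2. DNP-HSA is a hapten-coupled albumin that cross-links anti-DNP IgE on the high-affinity IgE receptor, but whether the sequenced cells carried this IgE, and the dose and duration of exposure, were not stated in what was read here. In each group 1 library has no number in its label and the others are numbered 1 and 2. Nothing in the labels says that the 3 libraries come from separate cultures or mice, so the tests measure the spread between these libraries.

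Immediate early genes are transcribed within minutes of a signal, without new protein synthesis, because the factors that switch them on are already present in the resting cell. SRF, bound to CArG boxes together with ERK-phosphorylated ternary complex factors, is one such factor, and CREB bound to cAMP response elements (CREs) is another. In mast cells, cross-linking of the IgE receptor raises calcium and activates the MAP kinases, and immediate early transcripts follow. The 9 genes encode nuclear regulators of transcription (Csrnp1, Maff, Cited2, Srf), the immediate early response proteins (Ier2, Ier5, Ier3) and adaptors of mRNA deadenylation that restrain proliferation (Btg1, Btg2).

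Promoter windows of the genes are shown because CREs and CArG boxes are the classical elements of immediate early genes. RefSeq windows on GRCm38.p6, from 250 bases before to 50 after each start site, were matched by symbol for 8 of the 9 genes, all but Ier2 (13 windows, since Csrnp1 has 4 and Maff 3). The capitals in the lines below mark a full CRE (TGACGTCA) in Btg2 and Maff, CRE half-sites (TGACG) in Csrnp1, and an ETS core (CCGGAAG) followed by a pair of CArG boxes in Srf. Each is written 5′ to 3′ on the strand of the gene and ends before the start site. They lie at chr1:134079186-134079335 (minus strand), chr15:79347400-79347519 (plus strand), chr9:119983780-119983899 (minus strand) and chr17:46556203-46556302 (minus strand).
Btg2: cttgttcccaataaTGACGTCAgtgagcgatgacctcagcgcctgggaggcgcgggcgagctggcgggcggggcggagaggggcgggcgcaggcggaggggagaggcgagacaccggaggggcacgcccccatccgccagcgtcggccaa
Maff: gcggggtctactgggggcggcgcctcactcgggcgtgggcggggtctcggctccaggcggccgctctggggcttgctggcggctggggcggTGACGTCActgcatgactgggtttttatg
Csrnp1: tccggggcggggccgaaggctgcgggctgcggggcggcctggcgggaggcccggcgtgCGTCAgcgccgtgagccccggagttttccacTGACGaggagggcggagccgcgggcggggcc
Srf: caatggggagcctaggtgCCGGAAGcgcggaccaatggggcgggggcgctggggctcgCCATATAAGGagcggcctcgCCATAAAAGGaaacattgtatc

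Searched on both strands, the full CRE was in the windows of Btg2 and Maff, 2 of the 8 genes, and in a window of 2.03% of the 27018 genes with one. In windows, these were 2 of 13 against 1.79% of all 32841. The CRE half-site, which every full CRE contains, was found for 5 of the 8 genes (Btg1, Btg2, Csrnp1, Maff and Srf) against 23.0% of all genes, or in 9 of 13 windows against 20.8%. A CArG box was in the window of Srf alone among the 8, against 1.81% of all genes. The ETS core was likewise found for Srf alone, against 9.93% of all genes, and an AP-1 site (TGACTCA or TGAGTCA) for Csrnp1 alone, against 5.95%. The GC box (GGGCGG) was found for all 8 genes (9 of the 13 windows), against 38.2% of all genes. The NF-κB site was searched as a loose pattern that fixes only the G bases at its start and the C bases at its end. It was also found for all 8 genes (10 of the 13 windows), against 53.5% of all genes. In Cited2, Csrnp1 and Maff, matches to it began on the first base of a GC box, so these are not separate from the GC box. In Btg1, Btg2, Ier3, Ier5 and Srf none began there, though a match in Ier3 overlapped a GC box. The antioxidant response element core (TGACNNNGC) was found for Csrnp1 and Maff, against 14.0%. Csrnp1 and Maff had more windows to hold a motif than the others. These are matches of letters in the windows, and no binding was measured. The Maff window with the CRE starts the isoform that carried a mean of 96.4% of the Maff FPKM. The Csrnp1 window shown starts the short isoform ENSMUST00000216929, with a mean of 40.03% of the FPKM but 9.76% of the estimated counts. None of the Csrnp1 windows lay at the start of ENSMUST00000215916, which carried 88.3% of those counts.

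In resting cells the 9 genes spanned a wide range of levels per kilobase. The mean FPKM in the blank libraries was 410 for Ier3, 117 for Ier2, 116 for Cited2, 93.8 for Btg1, 14.9 for Srf, 12.2 for Csrnp1, 8.67 for Ier5, 7.03 for Btg2 and 0.845 for Maff. Ier3 was thus above 99.1% of the genes tested, and Maff above 3.54%. Neighbours in this order overlapped between libraries for Ier2 and Cited2, Srf and Csrnp1, Csrnp1 and Ier5, and Ier5 and Btg2. In the DNP-HSA+SiO2 group the mean FPKM of Maff was 36.5, above 85.6% of the genes tested. Summed over the 9 genes, the FPKM was 654 to 997 in the blank libraries, 1604 to 3280 in the SiO2 libraries, 1431 to 3444 in the DNP-HSA libraries and 2082 to 4093 in the DNP-HSA+SiO2 libraries, so no exposed library reached down to the blank range. In bulk RNA, fewer responding cells and less RNA per cell cannot be told apart.

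The libraries held 55737606 to 76718065 estimated counts each, which are not read counts. Mast cell transcripts were high throughout, with Fcer1a at 2311 to 3253 FPKM and Kit at 853 to 1513. The 4 unnumbered libraries stood apart in cell type markers. Of 11 mast cell markers, the proteases Tpsab1 (405 to 448 FPKM against 9.42 to 42.9) and Mcpt4 (9.47 to 11.5 against 0.398 to 1.01) were higher in them than in all numbered libraries, the chymase Cma1 was lower (3698 to 4281 against 7249 to 11650), and the other 8 overlapped. The summed level of the 11 was lower in the unnumbered libraries (17910 to 20220 against 21260 to 27930). Of 3 basophil markers Mcpt8 was higher (20.7 to 24.3 against 0.774 to 5.32), Cd200r3 and Prss34 overlapped, and so did the sums (122.5 to 158 against 121.3 to 167.3). Of the neutrophil and macrophage markers, Lyz2 (3.04 to 3.71 against 17.9 to 87.9) and Csf1r were lower and Adgre1 was higher. The summed level of 7 neutrophil and macrophage markers was 7.99 to 9.31 FPKM in the unnumbered and 18.7 to 115 in the numbered libraries, with S100a9 listed at 0 in 8 of the 12. By group this sum was 9.02 to 97.6 (blank), 7.99 to 87.7 (SiO2), 8.35 to 83.8 (DNP-HSA) and 9.31 to 115 (DNP-HSA+SiO2), so the groups share the range. The part of these cells in the levels below was not tested.

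Positions are those of the deposited table, and the build the authors used was not stated in what was read here. For 21 of the 22 isoforms they equalled the GENCODE M21 annotation of GRCm38, matched by identifier. Levels by library are given below as CPM, the estimated counts of a gene scaled to library size with TMM (a normalization that sets the bulk of genes equal between libraries), in the order unnumbered, 1 and 2. Comparisons are log2 changes ± standard error (SE) from edgeR's quasi-likelihood fit over all genes.

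Csrnp1 (ENSMUSG00000032515, chr9:119971163-119984658), a cysteine-serine-rich nuclear protein that acts as a transcription factor, was well separated from the blank. Its level was 20.6, 22.7 and 29.7 CPM in the blank libraries. It was 718, 217 and 213 CPM with SiO2, 312, 284 and 956 CPM with DNP-HSA, and 942, 521 and 340 CPM with DNP-HSA+SiO2. The lowest exposed library was therefore far above the highest blank library, while the exposed groups overlapped each other. The log2 changes from blank were 3.97 ± 0.67 for SiO2, 4.41 ± 0.69 for DNP-HSA and 4.63 ± 0.69 for DNP-HSA+SiO2. The SiO2 value was 3.15 without the unnumbered SiO2 library, and the DNP-HSA value 3.61 without library 2 of that group. Csrnp1 lies within the annotated span of Cx3cr1 on the same strand (1.19 to 13.7 FPKM), and an antisense gene, 1700019L13Rik, reached 1.498 FPKM, so some reads could belong to either.

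Maff (ENSMUSG00000042622, chr15:79346621-79359076), a small Maf protein without a transactivation domain that binds DNA as a homodimer or with CNC partners such as NRF2 and BACH1, was nearly silent in the blank libraries, at 0.605, 2.67 and 1.63 CPM. It was 138, 58.3 and 36.5 CPM with SiO2, 22.4, 26.3 and 134 CPM with DNP-HSA, and 164, 73.0 and 38.9 CPM with DNP-HSA+SiO2. Every exposed library was above every blank library, and the highest library was the unnumbered one under SiO2 and library 2 under DNP-HSA alone. The log2 changes from blank were 5.57 ± 0.98, 5.22 ± 0.97 and 5.82 ± 0.996 for SiO2, DNP-HSA and DNP-HSA+SiO2, the highest of the 9 genes in each comparison. The DNP-HSA value was 3.89 without library 2 of that group, and the SiO2 and DNP-HSA+SiO2 values were 4.86 and 5.11 without the unnumbered library of each.

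Cited2 (ENSMUSG00000039910, chr10:17723218-17725674), which binds the CH1 domain of CBP and p300 and thereby competes with HIF-1α, had smaller differences and varied little in the blank group. Its level was 229, 210 and 233 CPM in the blank libraries, 588, 394 and 308 CPM with SiO2, 758, 593 and 900 CPM with DNP-HSA, and 787, 722 and 613 CPM with DNP-HSA+SiO2. The blank libraries lay below all others, and the SiO2 libraries lay below all DNP-HSA and all DNP-HSA+SiO2 libraries. The log2 changes from blank were 0.94 ± 0.26, 1.74 ± 0.26 and 1.66 ± 0.26.

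Srf (ENSMUSG00000015605, chr17:46548329-46556175), the MADS-box factor that itself drives many immediate early genes, had the smallest differences from the blank among the 9. Its level was 25.0, 42.0 and 34.3 CPM in the blank libraries, 30.1, 68.8 and 39.1 CPM with SiO2, 42.2, 57.7 and 99 CPM with DNP-HSA, and 39.8, 59.6 and 95.9 CPM with DNP-HSA+SiO2. The ranges of blank and SiO2 and of blank and DNP-HSA+SiO2 overlapped, and the lowest DNP-HSA library was just above the highest blank library. The log2 changes from blank were 0.44 ± 0.42, 0.97 ± 0.42 and 0.95 ± 0.42. An antisense lincRNA, Gm26904, overlaps Srf in the annotation, and whether reads were counted by strand was not stated in what was read here.

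Ier2 (ENSMUSG00000053560, chr8:84661331-84662854) and Ier5 (ENSMUSG00000056708, chr1:155096361-155099636) encode related nuclear proteins, of which IER5 in human cells recruits PP2A to HSF1. Ier2 was at 67.7, 76.4 and 395 CPM in the blank libraries, so that library 2 stood well above the other two. It was 1087, 570 and 733 CPM with SiO2, 1018, 442 and 1756 CPM with DNP-HSA, and 1536, 875 and 912 CPM with DNP-HSA+SiO2, above the blank in every library. The log2 changes from blank were 2.15 ± 0.70, 2.58 ± 0.72 and 2.63 ± 0.72, and without library 2 of the blank group they were 3.47, 3.90 and 3.94. Ier5 was at 39.8, 18.3 and 24.2 CPM in the blank libraries and at 46.0 to 366 CPM in the exposed ones, with its lowest exposed value in library 2 of SiO2. Its log2 changes were 2.22 ± 0.75, 2.55 ± 0.76 and 2.75 ± 0.76, and the values for SiO2 and DNP-HSA+SiO2 were 1.21 and 1.78 without the unnumbered library of each.

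Ier3 (ENSMUSG00000003541, chr17:35821684-35822923), known in human cells as IEX-1, an ERK substrate that acts on cell survival, was the most abundant of the 9 genes per kilobase. Its level was 346, 453 and 566 CPM in the blank libraries, 2298, 1043 and 909 CPM with SiO2, 1256, 733 and 2021 CPM with DNP-HSA, and 2986, 1183 and 978 CPM with DNP-HSA+SiO2. All exposed libraries were above the blank libraries, and the unnumbered ones were highest in both SiO2 groups. The log2 changes from blank were 1.64 ± 0.53, 1.55 ± 0.53 and 1.91 ± 0.54. The SiO2 value was 1.11 without the unnumbered SiO2 library, and the DNP-HSA+SiO2 value 1.27 without the unnumbered DNP-HSA+SiO2 library.

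Btg1 (ENSMUSG00000036478, chr10:96617006-96622809) and Btg2 (ENSMUSG00000020423, chr1:134075170-134079120) belong to the BTG/TOB family, whose proteins bind the CNOT7 and CNOT8 deadenylases. Btg1 was steady in the blank libraries, at 432, 387 and 438 CPM, and was 669 to 1946 CPM in the exposed ones, with no overlap. With SiO2 it was at 1632, 669 and 762 CPM, so that the unnumbered library stood well above the others. Its log2 changes from blank were 1.29 ± 0.35, 1.53 ± 0.36 and 1.78 ± 0.36, and the SiO2 value was 0.78 without the unnumbered SiO2 library. Btg2, a p53 target, was the most variable of the 9 genes in each exposed group. It was at 39.1, 4.72 and 11.1 CPM in the blank libraries, 1021, 69.7 and 66.0 CPM with SiO2, 609, 30.2 and 199 CPM with DNP-HSA, and 1548, 113 and 66.8 CPM with DNP-HSA+SiO2. The unnumbered library was the highest in all 4 groups, and DNP-HSA library 1 was below the unnumbered blank library. Its log2 changes were 4.39 ± 1.67, 3.93 ± 1.63 and 4.97 ± 1.71. Without the unnumbered library of the exposed group they were 1.91, 2.64 and 2.32, and without the unnumbered blank library 5.60, 5.14 and 6.18.

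**Figure D1:**
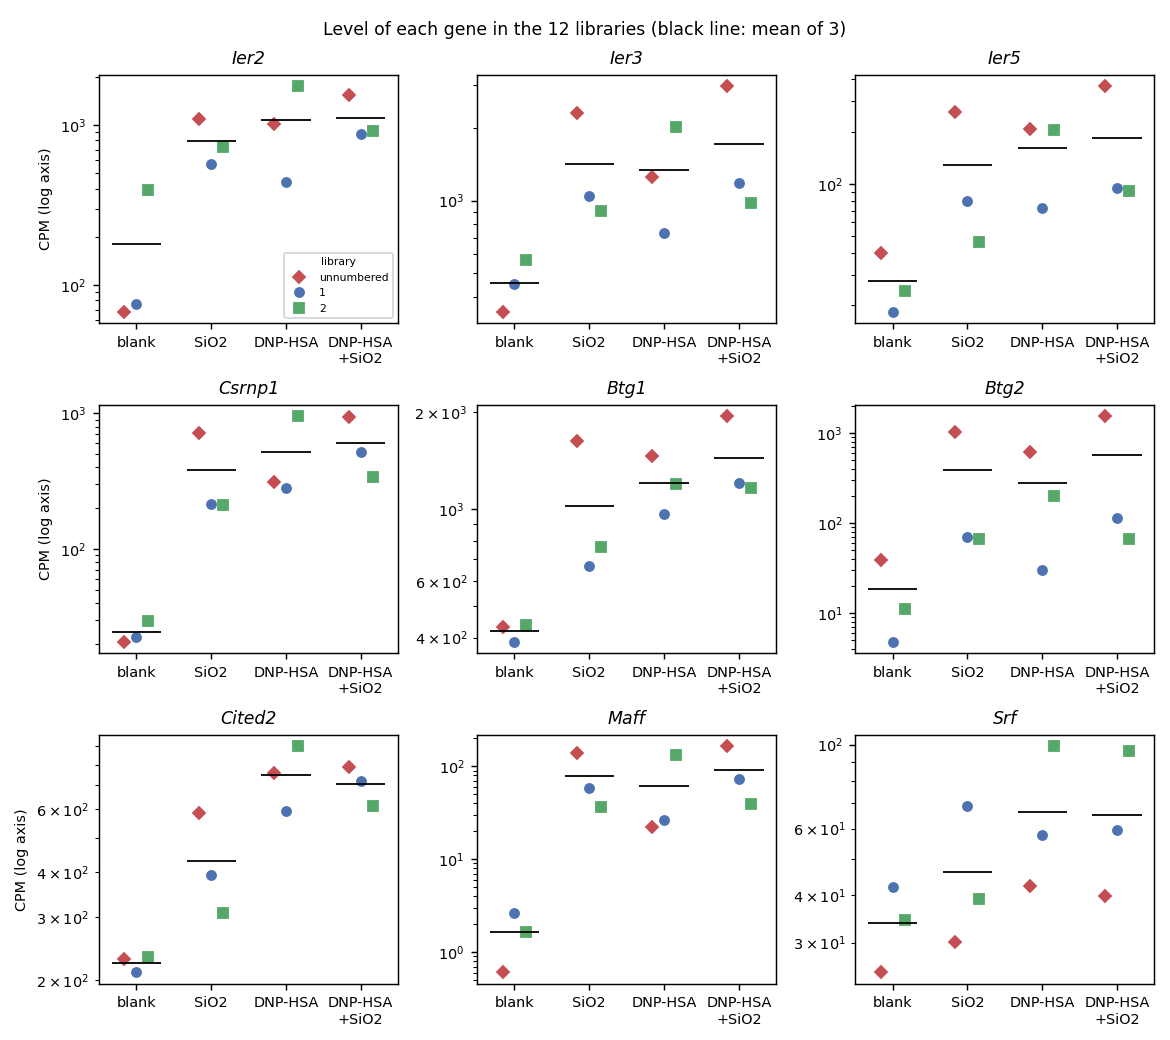
Level of each of the 9 genes in the 12 libraries, in CPM on a log axis that differs between panels; each point is a library, red diamonds are unnumbered, blue circles library 1, green squares library 2, and black lines are means of 3. On this CPM scale the exposed libraries lie above the blank ones for Csrnp1, Maff, Cited2, Ier2, Ier3, Ier5 and Btg1, while Srf and Btg2 overlap in at least 1 comparison.

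Compared with the blank control, all 9 log2 changes were positive in each of the 3 comparisons, with medians of 2.15 (SiO2), 2.55 (DNP-HSA) and 2.63 (DNP-HSA+SiO2) beside -0.01, 0.01 and -0.01 over all genes tested. For SiO2, edgeR called 0 of the 9 genes at an adjusted p under 0.05, where 0.0622% of all genes were called. Of the 9, 8 had an unadjusted p under 0.05, beside 8.03% of all genes. DESeq2 called 6 of the 9 and 277 of all genes, and limma 2 and 30. For DNP-HSA, Csrnp1 and Cited2 were called, 2 of 9, beside 0.218% of all genes. For DNP-HSA+SiO2, Csrnp1, Cited2 and Maff were called, 3 of 9, beside 0.575%. On CPM, every library was above every blank library for 8 of 9 genes in each comparison, where the shares of all genes were 7.85%, 6.94% and 8.58%; the exception was Srf for SiO2 and for DNP-HSA+SiO2, and Btg2 for DNP-HSA. On FPKM in place of CPM the counts were 7, 6 and 8 of 9, beside 4.52%, 3.62% and 4.39% of all genes, with Ier5 also overlapping for SiO2 and Ier2 and Srf for DNP-HSA. As these contrasts led to the choice of the genes, nothing is read from the counts.

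The calls rested on few libraries, for the 9 genes and over all genes. For DNP-HSA, leaving out any of the blank libraries or DNP-HSA library 2 left 0 of 9 called, and leaving out the unnumbered DNP-HSA library gave 3. Over all 12862 genes tested, the 28 calls became 2, 6 and 6 without the unnumbered blank library, blank library 1 and blank library 2. They became 10 without DNP-HSA library 2 and 49 without the unnumbered DNP-HSA library. For DNP-HSA+SiO2, leaving out any of the blank libraries or DNP-HSA+SiO2 library 1 left 0 of 9 called, and leaving out its unnumbered library left 1, Csrnp1. Over all genes, the 74 calls became 9, 7 and 11 without the unnumbered blank library, blank library 1 and blank library 2. They became 10 without DNP-HSA+SiO2 library 1 and 32 without the unnumbered DNP-HSA+SiO2 library.

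**Figure D2:**
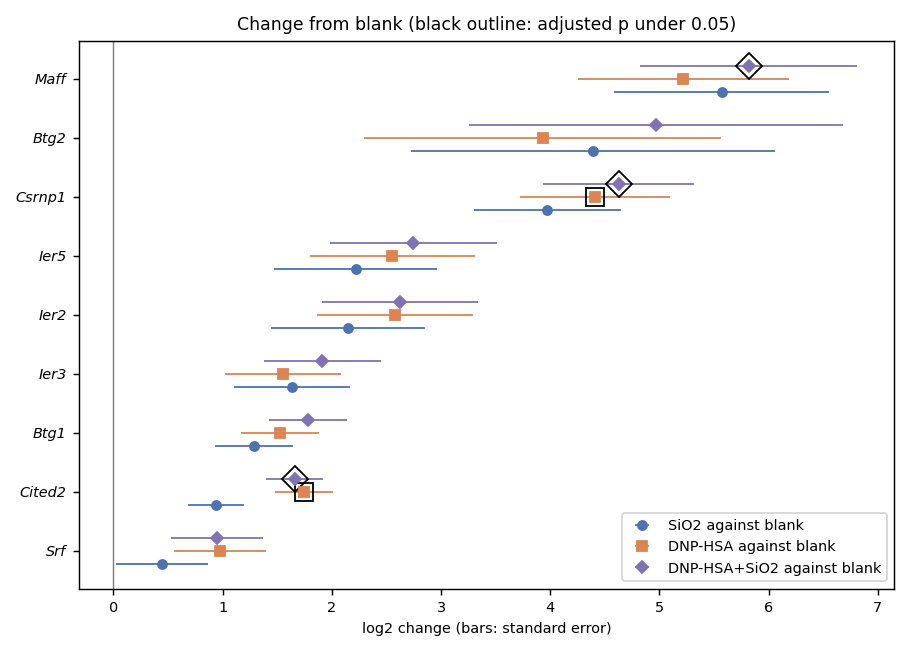
Log2 change from blank for the 9 genes (points) with standard errors (bars), by comparison; a black outline marks an adjusted p under 0.05 from edgeR. Maff, Btg2 and Csrnp1 have the 3 largest changes in each comparison, from 3.93 to 5.82, and Btg2 the widest bars, while Srf is lowest at 0.44 to 0.97.

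The effect of silica added to the antigen was measured by DNP-HSA+SiO2 against DNP-HSA, which includes any separate effect of silica. The interaction, given below, sets the change under both against the separate changes. Between DNP-HSA+SiO2 and DNP-HSA, the 9 genes had log2 changes from -0.09 (Cited2) to 1.04 (Btg2), with a median of 0.22 beside -0.01 over all genes, and the libraries of the groups overlapped for all 9. edgeR called 0 of 9 (adjusted p = 0.9999 for each), where 0.0% of all genes were called. Of the 9, 0 had an unadjusted p under 0.05, beside 0.645% of all genes, and DESeq2 and limma called 0. The SEs were 0.25 for Cited2 and 0.35 for Btg1, but 1.46 for Btg2 and 0.81 for Maff, so the difference was measured with very unequal precision. The sign differed between the libraries. Between libraries of equal number, which deviated together in these groups, DNP-HSA+SiO2 was higher for 8 of 9 genes in the unnumbered pair (all but Srf), for 9 of 9 in pair 1 and for 0 of 9 in pair 2. The log2 ratio of Maff was 2.82, 1.44 and -1.76 in the unnumbered pair, pair 1 and pair 2, that of Csrnp1 1.59, 0.87 and -1.49, and that of Btg2 1.34, 1.86 and -1.56. With the number as a block within the paired groups, 0 of 9 were called.

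**Figure D3:**
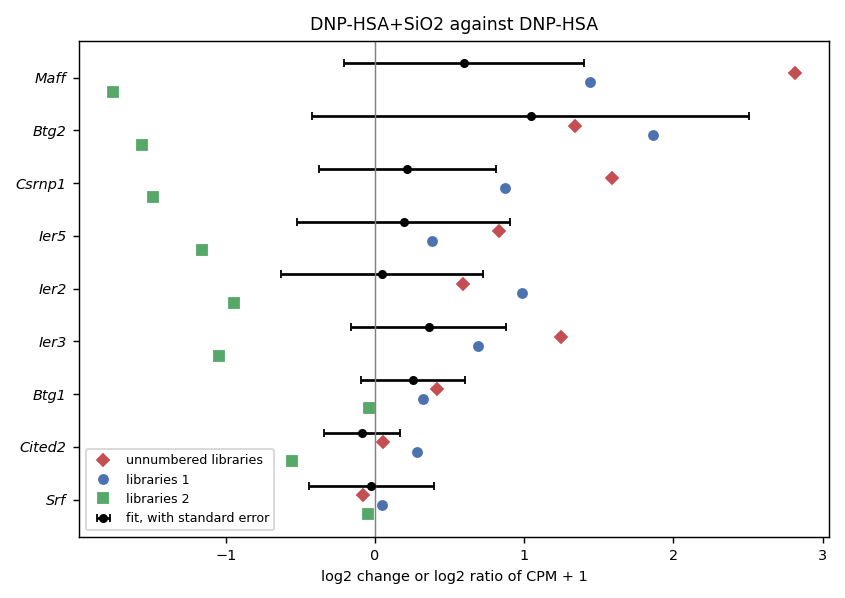
DNP-HSA+SiO2 against DNP-HSA for the 9 genes; black points are log2 changes of the fit with standard errors, and the other symbols the log2 ratio of CPM + 1 between libraries of equal number (red diamonds unnumbered, blue circles 1, green squares 2). For Maff the ratios are 2.82, 1.44 and -1.76, and all 9 ratios of libraries 2 are below 0.

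SiO2 alone was also set against DNP-HSA alone. The log2 changes ran from -0.80 (Cited2) to 0.46 (Btg2), with a median of -0.33 beside 0.00 over all genes, and 6 of 9 were negative. edgeR called 0 of 9, and 0.0% of all genes. Cited2 was the only gene of the 9 whose SiO2 libraries (308 to 588 CPM) all lay below the DNP-HSA libraries (593 to 900 CPM). The share of all genes without overlap was not counted for this comparison. Cited2 was also the only one with an unadjusted p under 0.05 (log2 change -0.80 ± 0.26, adjusted p = 0.99996 by edgeR), beside 1.23% of all genes. Numbers 1 and 2 did not go together between these groups, so they are pooled here. Between the unnumbered libraries 7 of 9 genes were higher with SiO2, again led by Maff with a log2 ratio of 2.57, and between the means of libraries 1 and 2 all 9 were lower, from -0.50 for Ier3 to -1.53 for Csrnp1.

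The interaction of SiO2 and DNP-HSA, the log2 change under both minus the sum of the changes under each, was negative for all 9 genes, from -0.47 (Srf) to -4.97 (Maff), with a median of -2.03 beside -0.00 over all genes. Thus the change under both was less than the sum of the separate changes on the log2 scale. edgeR called 0 of 9, 3 had an unadjusted p under 0.05 (Csrnp1, Maff and Cited2; 2.08% of all genes), the lowest adjusted p was 0.911, and 0.0233% of all genes were called. DESeq2 called Csrnp1 and Maff, and 36 of all genes. This term uses the blank libraries, so it is a description too.

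Within groups, most of the 9 genes spread more than the median of all genes tested. Their coefficient of variation across the 3 libraries exceeded the median of all genes tested (27.6%) for all 9 in the SiO2 group, from 33.2% for Ier2 to 143% for Btg2. In the blank group it did so for 6 of 9 (median of all genes 21.5%), with Cited2 at 5.39% and Btg1 at 6.60%. In the DNP-HSA group it did so for 7 of 9 (median 25.2%), all but Btg1 at 20.4% and Cited2 at 20.5%. In the DNP-HSA+SiO2 group it did so for 8 of 9 (median 26.5%), all but Cited2 at 12.4%. In the SiO2 and DNP-HSA+SiO2 groups the unnumbered library was the highest for 8 of the 9 genes, all but Srf. In the DNP-HSA group library 2 was the highest for 6 (Ier2, Ier3, Csrnp1, Cited2, Maff and Srf). The neutrophil genes S100a9 and Elane were detected in libraries 1 of blank and SiO2 and in libraries 2 of DNP-HSA and DNP-HSA+SiO2, and their part in these levels was not tested.

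Isoforms were described where a gene had at least 2 isoforms with a mean share of 10% or more, which held for Cited2 and Csrnp1. For Cited2, ENSMUST00000219558 is a single exon that spans the intron of the main isoform. It took 2.94%, 3.41% and 8.87% of the Cited2 FPKM in the blank libraries, 23.1%, 15.3% and 17.6% with SiO2, 3.76%, 4.78% and 10.9% with DNP-HSA, and 17.6%, 9.19% and 2.89% with DNP-HSA+SiO2. The SiO2 libraries did not overlap the blank or the DNP-HSA libraries, whereas the DNP-HSA+SiO2 libraries overlapped all 3 other groups. An exact two-sided permutation test of 3 against 3 libraries cannot give a p below 0.1, so no test was made. For Csrnp1, ENSMUST00000215916 and the short ENSMUST00000216929 took a mean of 58.3% and 40.03% of the FPKM but 88.3% and 9.76% of the estimated counts, since FPKM divides by an isoform length of 2956 or 465 bases. The share of the short isoform ranged from 31.8% to 43.0% in the blank libraries and from 34.7% to 52.8% in the exposed ones, with overlap in all comparisons with the blank.

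**Figure D4:**
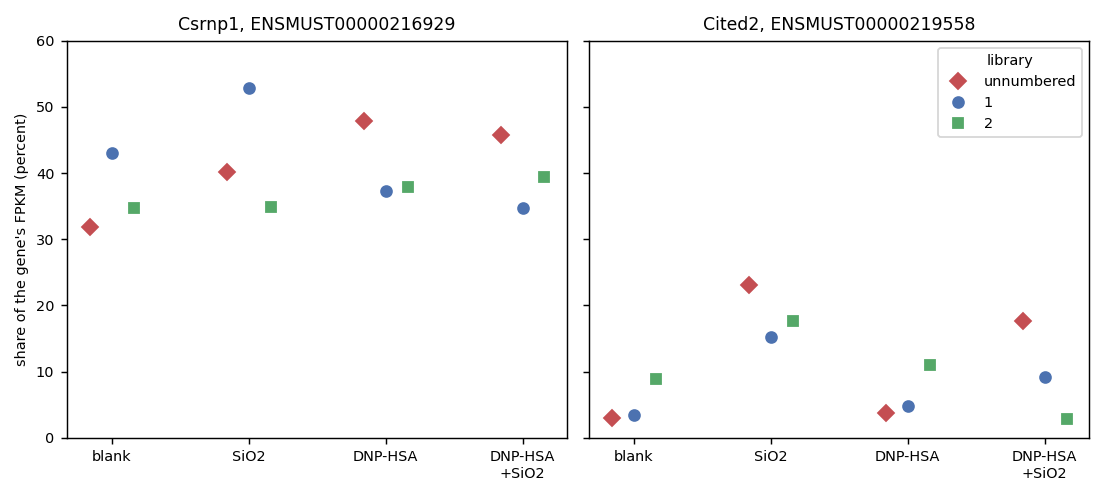
Share of the gene's FPKM (percent) taken by Csrnp1 isoform ENSMUST00000216929 and Cited2 isoform ENSMUST00000219558 in each library, by group, with symbols by library number. The Cited2 isoform is at 15.3% to 23.1% in the SiO2 libraries, above the blank (2.94% to 8.87%) and DNP-HSA (3.76% to 10.9%) libraries.

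For each of the 9 genes, the gene with the most similar course over the 12 libraries was found by the root mean square (RMS) difference of log2(CPM + 1), each centred on its mean. Ier2 was nearest to Zfp36, an mRNA decay factor (RMS 0.36 log2 units). Maff was nearest to Phlda1 (0.33). Csrnp1 was nearest to the MAP kinase phosphatase Dusp4 (0.35), and Btg2 to the cytokine gene Lif (0.79). Ier5 was nearest to the cell cycle inhibitor Cdkn1a (0.24), Ier3 to Ifrd1 (0.24), Btg1 to Vmp1 (0.22) and Cited2 to Plekho2 (0.22). Srf was nearest to Dnaja4 (0.22). Among the 9 themselves the closest pair was Btg1 and Cited2 (0.28). For Srf the nearest of the 9 was Cited2 at 0.65, and Cited2 ranked 4841 among the genes compared with Srf. The RMS of Srf about its own mean was 0.59, so a flat course would have been nearer to Srf than Cited2 was. These are descriptions over 12 libraries that share their groups.

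Relatives of the 9 genes were listed for comparison. Of 15 family relatives (BTG/TOB, CITED, Maf, CSRNP, IER and MADS-box genes), 9 passed the filter, all of them BTG/TOB, CITED, small Maf or MADS-box genes. No CSRNP or IER relative was tested. The median log2 changes of the 9 relatives from blank were 0.45 (SiO2), 0.37 (DNP-HSA) and 0.32 (DNP-HSA+SiO2). Tob2, a BTG/TOB relative of Btg1, rose with DNP-HSA (log2 change 1.67 ± 0.22, adjusted p = 0.0165) and with DNP-HSA+SiO2 (1.78 ± 0.22, adjusted p = 0.0107, edgeR), and was the only one of these relatives to pass the test in either. In DNP-HSA+SiO2, Btg3 had a log2 change of 1.79 ± 0.55 and Tob1 of 1.13 ± 0.24, neither past the threshold. For SiO2 0 of 9 relatives passed.

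SRF works through cofactors and drives genes of the actin cytoskeleton in addition to immediate early genes. Of 5 SRF cofactors tested, 0 passed in any comparison, and their median log2 changes from blank were -0.26, -0.17 and -0.09, with Elk4, a ternary complex factor, at 0.40 ± 0.24 under DNP-HSA+SiO2. Of 12 cytoskeletal SRF targets tested, 0 passed, with medians of 0.26, 0.36 and 0.42. Changes were positive for 7, 12 and 8 of the 12 (48.4%, 50.8% and 48.8% of all genes), and under DNP-HSA Tpm4, a tropomyosin, stood at 1.42 ± 0.66 and Actg1, cytoplasmic γ-actin, at 1.20 ± 0.29. Of 13 partners of the encoded proteins (deadenylases, CBP and p300, PP2A, NRF2 and others), 0 passed, with medians of 0.13, 0.05 and 0.18.

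The 25 other immediate early genes listed for comparison, among them Nr4a, Egr and Fos genes, all passed the filter, and many are known from earlier work on these libraries, so their counts are no independent evidence. Their median log2 changes from blank were 3.03, 3.34 and 3.39, and 6, 7 and 11 of 25 passed the test, all upwards. Under DNP-HSA+SiO2 the largest were Nr4a3 at 8.07 ± 0.78, Atf3 at 7.68 ± 1.60 (adjusted p = 0.0611 by edgeR) and Egr2 at 7.49 ± 1.26. Against DNP-HSA alone, 0 of 25 passed with SiO2 added. The interaction was negative for all 25, with a median of -3.05, and Nr4a3, Nr4a2 and Egr3 passed the test. These were the 3 genes called among all genes in that comparison (Nr4a2 and Egr3 are named after their values were seen). With the replicate number as a block within the paired groups, 0 were called there.

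**Figure D5:**
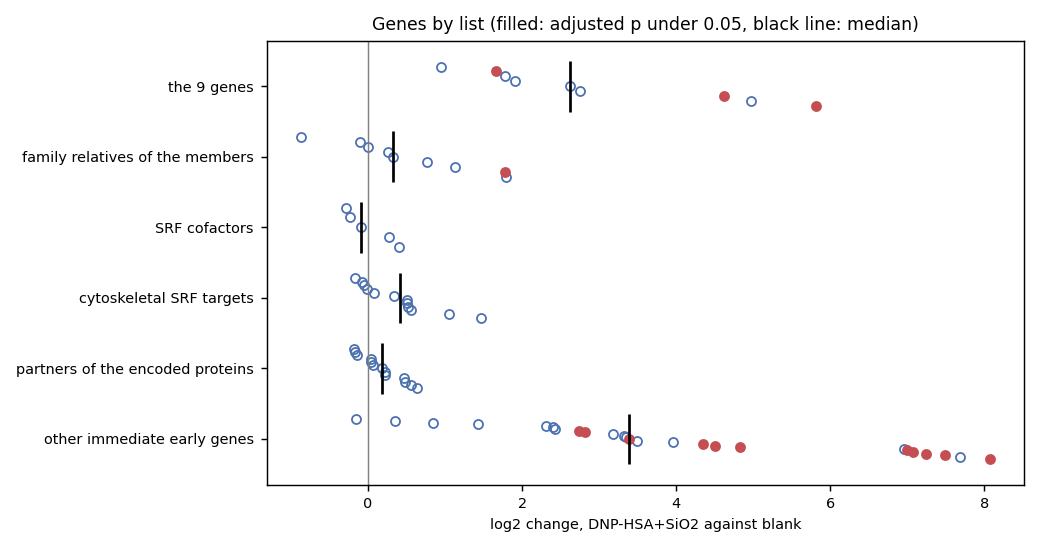
Log2 change of DNP-HSA+SiO2 from blank for the 9 genes and 5 gene lists; each circle is a gene, filled red where the adjusted p from edgeR is under 0.05, and black lines are medians. The median is 2.63 for the 9 genes and 3.39 for the other immediate early genes, against 0.32 for family relatives, -0.09 for SRF cofactors, 0.42 for cytoskeletal SRF targets and 0.18 for protein partners.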

How the data were processed

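BMMC poly(A) RNA was sequenced as paired reads of 150 bases. The authors deposited FPKM values and estimated counts per isoform, the latter being FPKM times length and a library constant, rounded up (99.6% to 99.7% of isoforms per library). Tools listed by the submitters, in processing notes without roles, include StringTie 1.3.4d, HISAT2 2.0.4 and cutadapt 1.9, besides edgeR and DESeq2. The estimated counts are therefore not read counts, and their rounding was not undone.

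Estimated counts were summed by gene identifier, from 84846 isoforms to 28852 genes. The totals were 55737606 to 76718065 estimated counts per library (median 66791566). Genes with FPKM of 1 or more in 3 libraries were tested (12862) with edgeR 4.0.16 in R 4.3.3 (TMM, robust quasi-likelihood F-test, all 12 libraries in 1 fit), with Benjamini-Hochberg adjustment over all of them and a threshold of 0.05. SE is the log2 change divided by the root of F. The steps were tested on simulated data. Alternatives were DESeq2 1.42.0, limma 3.58.1 on log2(FPKM + 1), DESeq2 size factors, no filter, counts divided by 4, the TPM scale, replicate blocks, and leaving out libraries.

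The 9 genes and all gene lists were chosen with earlier results of these data known. All 9 genes are named, and from each list up to 3 genes with the largest absolute log2 change in a comparison. Nr4a2 and Egr3, named for the interaction, fall outside this rule. For each of the 9 genes, the tested gene nearest in pattern (smallest RMS difference, provisional symbols left out) is also named. Equal numbers deviated together between blank and SiO2 (correlations 0.576, 0.599 and 0.581) and between DNP-HSA and DNP-HSA+SiO2 (0.462, 0.573 and 0.297). Across these pairs of groups numbers 1 and 2 went crosswise: between blank and DNP-HSA the correlations were -0.112 and -0.0973 for equal numbers 1 and 2, but 0.538 for each of the swapped combinations. No label says what a number marks, so this pairing comes from the data alone and holds within the 2 pairs of groups only.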

Additional observations from a re-analysis of the deposited data

How the results depend on the processing

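For SiO2 against blank, 0 of the 9 genes were called by edgeR, 6 by DESeq2 and 2 by limma. For DNP-HSA against blank the 2 calls became 6 with DESeq2 and 1 without the 4 unnumbered libraries, and 0 to 3 when 1 library was left out. For DNP-HSA+SiO2 against blank the 3 calls became 8 with DESeq2, 5 with the replicate block over all 12 libraries and 0 without the 4 unnumbered libraries, and 0 to 3 when 1 library was left out. The interaction had 0 calls with edgeR and 2 with DESeq2. The block over all libraries, which gave 0 calls for SiO2 and 3 for DNP-HSA, matches libraries that do not go together: between blank and DNP-HSA+SiO2, equal numbers 1 and 2 correlated at -0.113 and -0.0340 and swapped ones at 0.449 and 0.534. Its calls are therefore no paired result. A block within the paired groups gave 0 for SiO2 against blank, for DNP-HSA+SiO2 against DNP-HSA and for the interaction. The causes were not tested. Of the 9 genes, 0 were called in either comparison with DNP-HSA under every alternative run.

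Over all genes, edgeR called 8, 28 and 74 for SiO2, DNP-HSA and DNP-HSA+SiO2 against blank, DESeq2 277, 305 and 592, limma 30, 46 and 90, and the block over all libraries 5, 66 and 101. Without filter edgeR called 16, 37 and 72, and without the unnumbered libraries 0, 54 and 22. When 1 library was left out, it called 2 to 49 for DNP-HSA and 7 to 145 for DNP-HSA+SiO2 against blank. For the interaction edgeR called 3 and DESeq2 36.

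The log2 changes of the 9 genes kept their sign in all alternatives against blank, and changed it in 24 of 126 values for DNP-HSA+SiO2 against DNP-HSA and in 13 of 117 for SiO2 against DNP-HSA. In the former, Btg2 was -1.61 without the unnumbered DNP-HSA+SiO2 library, and Maff was -0.52 without the 4 unnumbered libraries and 1.91 without DNP-HSA library 2. The TPM scale shifted the median of all genes by -0.312, -0.246 and -0.353 in the comparisons with blank (SiO2, DNP-HSA, DNP-HSA+SiO2).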
